A study of Mus musculus with 48 samples.

Results

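A set of 6 genes that mark granule cells of the dentate gyrus (DG), *Prox1*, *Dsp*, *C1ql2*, *Lct*, *Tdo2* and *Trpc6*, were followed in RNA-sequencing data of hippocampal Cornu Ammonis (CA) tissue. The 6 genes were taken by symbol and were found among the 24421 genes of the count matrix, and each of them had reads in all 48 libraries. The mice carried floxed CB1 alleles (CB1f/f), CB1 being the main cannabinoid receptor of the brain. In the Glu-CB1 line (nex-cre x CB1f/f), Cre recombinase under regulatory elements of *Nex* removes CB1 from glutamatergic neurons, and in the GABA-CB1 line (dlx5/6-cre x CB1f/f), Cre under elements of *Dlx5/6* removes it from GABAergic neurons. CB1-WT littermates without the deletion were the controls of each line, all mice were males given an age of 8 weeks in the labels, and each library was 1 mouse.

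In the basal state, meaning straight from the home cage, the Glu-CB1 line gave 7 KO and 5 CB1-WT libraries and the GABA-CB1 line 6 of either genotype. Open field mice spent 5 min in a new open field arena, and the study isolated their tissue at a set time afterwards, not at once. In this state, the Glu-CB1 line again gave 7 KO and 5 CB1-WT libraries, and the GABA-CB1 line 5 KO and 7 CB1-WT libraries. These are the numbers of the labels, and the text of the study gives this last pair of group sizes the other way round. What was sequenced is the hippocampus after removal of the DG by dissection. Mice were chosen for sequencing partly by RT-qPCR of *Tdo2* as DG marker and *Adgrl2* (*Lphn2*) as CA marker. *Tdo2* was thus among the measures used to select the mice, and how far this bears on its range here was not tested. The study reports *Tdo2* as not detected in the tissue by RT-qPCR, which is a measure unlike the read counts used here.

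Granule cells are the principal neurons of the DG, and their axons, the mossy fibers, run into CA3. *Prox1* encodes the homeobox transcription factor that sets granule cell identity in place of a pyramidal fate. *C1ql2* encodes a secreted C1q-like protein of mossy fiber synapses, *Dsp* the desmosomal plaque protein desmoplakin, and *Trpc6* a cation channel gated by diacylglycerol. *Lct* encodes lactase, an enzyme of the intestinal brush border whose transcript also marks granule cells, and *Tdo2* encodes tryptophan 2,3-dioxygenase, which opens the kynurenine pathway of tryptophan breakdown.

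The libraries had total counts from 25892654 to 34091080 (median 30975561). The CA marker *Adgrl2* lay between 57.6 and 94.9 CPM (read counts scaled to library size, with TMM normalization), and *Cnr1*, the gene of CB1, had lower values in every KO library (100 to 249 CPM) than in every CB1-WT library (311 to 412 CPM). A principal component analysis took the 500 genes that varied most inside groups, without the 6 members and with group means removed. On its first component, which held 20.4% of their variance, 14 libraries stood apart, 9 of the Glu-CB1 and 5 of the GABA-CB1 line. These libraries came from all 8 groups, and what set them apart was not tested. All 14 have a number in the lower of 2 ranges of the number that ends the library names, and 0 in the higher one, so the 2 splits are not separate. The summed level of 6 choroid plexus genes was 120.2 CPM or less in every library of 4 groups, and reached 283 CPM in the Glu-CB1-KO open field group, 632 CPM in the Glu-CB1-KO basal group, 1509 CPM in the GABA-CB1-WT basal group and 4051 CPM in the GABA-CB1-KO open field group.

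The members differ in the sequence at their start sites. RefSeq promoters, 250 bases before to 50 after a start, were found for 6 of the 6 members. The 2 promoters of *Prox1* hold 25 and 14 CG dinucleotides, that of *Dsp* holds 27, that of *C1ql2* 23 and that of *Trpc6* 17, against a median of 7 over 32851 promoters of the same length. The promoters of *Tdo2* and *Lct* hold 4 and 1. The promoters of *C1ql2*, *Lct* and *Tdo2* are shown to set a CG-rich member beside the CG-poor ones, in lower case and 5′ to 3′, with each CG in capitals.
C1ql2 promoter, GRCm38.p6 chr1:120340332-120340631, + strand: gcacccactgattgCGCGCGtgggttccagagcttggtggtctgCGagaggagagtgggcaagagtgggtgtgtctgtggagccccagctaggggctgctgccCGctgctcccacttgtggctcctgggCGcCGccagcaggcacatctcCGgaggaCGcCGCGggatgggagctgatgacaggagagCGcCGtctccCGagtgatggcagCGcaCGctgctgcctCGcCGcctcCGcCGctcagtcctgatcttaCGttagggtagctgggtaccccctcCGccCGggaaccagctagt
Lct promoter, GRCm38.p6 chr1:128328269-128328568, - strand: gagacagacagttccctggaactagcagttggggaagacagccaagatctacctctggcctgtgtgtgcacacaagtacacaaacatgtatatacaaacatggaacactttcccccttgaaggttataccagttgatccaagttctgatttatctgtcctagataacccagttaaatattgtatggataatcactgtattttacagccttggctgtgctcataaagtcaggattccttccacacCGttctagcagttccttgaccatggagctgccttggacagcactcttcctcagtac
Tdo2 promoter, GRCm38.p6 chr3:81975679-81975978, - strand: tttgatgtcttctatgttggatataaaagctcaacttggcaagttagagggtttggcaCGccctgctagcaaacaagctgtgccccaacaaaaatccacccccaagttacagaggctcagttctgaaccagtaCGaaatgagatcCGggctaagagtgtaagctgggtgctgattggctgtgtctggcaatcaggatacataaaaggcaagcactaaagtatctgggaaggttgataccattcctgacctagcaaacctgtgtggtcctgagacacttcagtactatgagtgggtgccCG

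The letters TATAAA, searched on both strands, were found in the promoter of *Tdo2* and in the upstream one of *Prox1*, and in 13.6% of all promoters. The letters CAGATG, also searched on both strands, were found in the same promoter of *Prox1* alone among the members and in 17.2% of all promoters, and CAGCTG was found in none of the members and in 16.3% of all. A match of these letters is given as a description of the sequence and not as a binding site.

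All members were measured well above the counting error. *Lct* (mm10 chr1:128284764-128328318, - strand) had between 886 and 2760 counts per library, a median level of 44.6 CPM and 7.23 CPM per kilobase of exon. *Dsp* (chr13:38151294-38198577, + strand) had between 532 and 2876 counts, 41.4 CPM and 4.32 CPM per kilobase. *Prox1* (chr1:190121777-190170680, - strand) had between 629 and 1923 counts, 34 CPM and 8.22 CPM per kilobase.

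*C1ql2* (chr1:120340582-120343174, + strand) had between 305 and 1448 counts, 16.8 CPM and 8.42 CPM per kilobase. *Trpc6* (chr9:8544142-8680741, + strand) had between 268 and 783 counts, 13.6 CPM and 2.67 CPM per kilobase. *Tdo2* (chr3:81958414-81975728, - strand) had the lowest counts, between 71 and 344, with 4.94 CPM and 3.02 CPM per kilobase. Per kilobase, *C1ql2* and *Prox1* were the highest members and *Trpc6* the lowest. The median over the 6 members was 5.77 CPM per kilobase, against 28.8 for 8 CA1 pyramidal markers and 15.97 for 11 markers of CA3 and CA2.

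No DG library was analysed here, so these levels cannot be turned into a share of granule cells. In bulk tissue, fewer cells of a type and less RNA per cell cannot be told apart, and whether the reads came from granule cells left with the tissue or from CA cells was not tested.

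**Figure D1:**
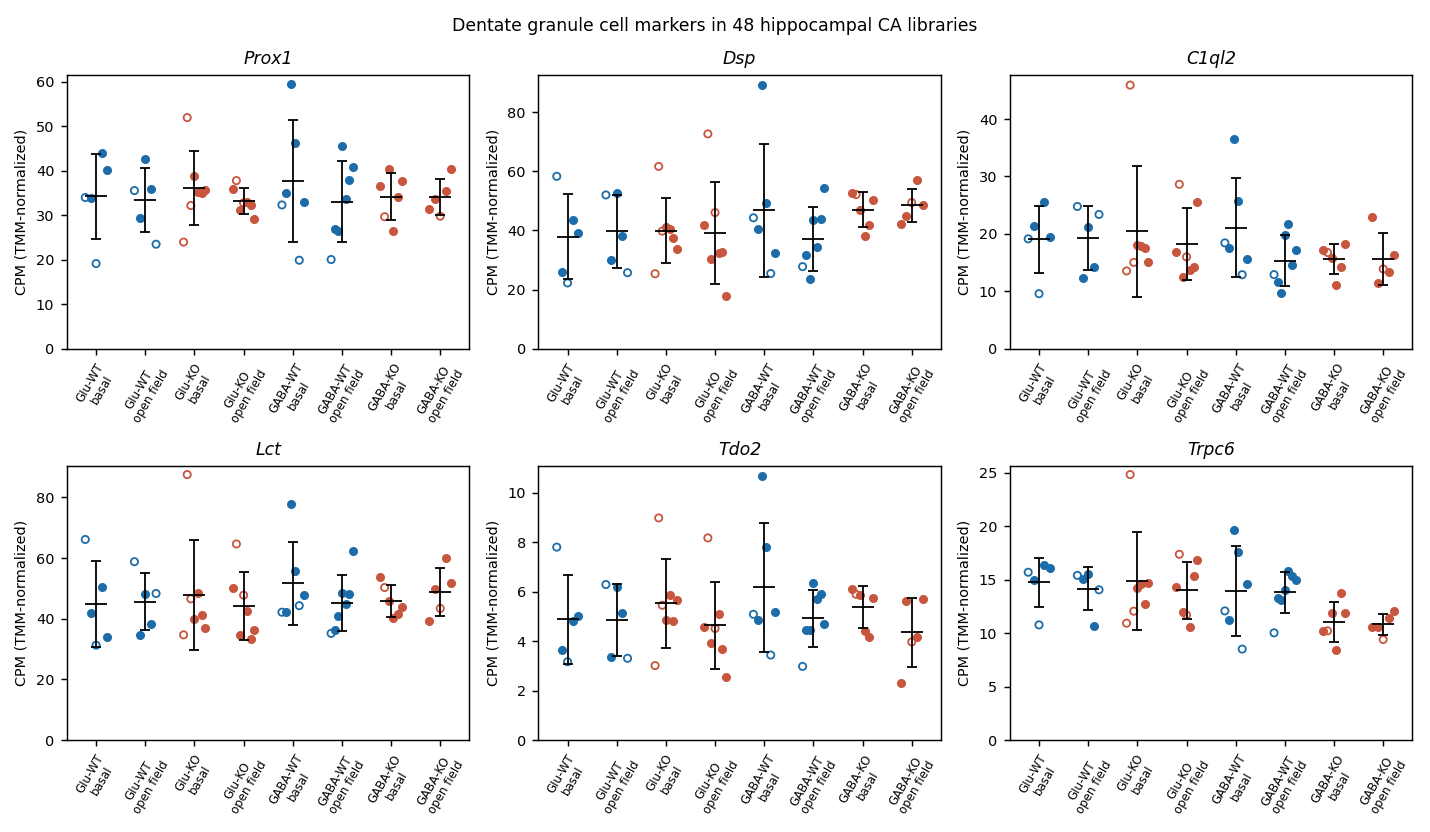
Levels of the 6 members in CPM (y axes, from 0) in each of the 48 libraries by group (x axes); blue points are CB1-WT and red points KO libraries, open points the 14 libraries that stood apart on the first principal component, and black bars the group mean and SD. The spread inside a group is larger than the distance between most group means, and single libraries such as 1 Glu-CB1-KO basal library at 45.9 CPM of *C1ql2* lie far above their group.

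The groups held the members at similar levels, and the mice inside a group differed widely. *Prox1* had its highest group mean in GABA-CB1-WT basal mice (37.7 ± 13.6 CPM, SD, n = 6) and its lowest in GABA-CB1-WT open field mice (33.1 ± 9.02 CPM, SD, n = 7), a ratio of 1.14. Single libraries ran from 19.1 CPM in a Glu-CB1-WT basal mouse to 59.6 CPM in a GABA-CB1-WT basal mouse. In the 5 Glu-CB1-WT basal libraries *Prox1* was 33.98, 33.9, 19.1, 44.04 and 40.1 CPM, and the library at 19.1 CPM was the lowest of all 48.

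*Dsp* was highest in GABA-CB1-KO open field mice (48.4 ± 5.65 CPM, SD, n = 5) and lowest in GABA-CB1-WT open field mice (36.99 ± 10.8 CPM, SD, n = 7). Its libraries covered the widest range of the 6 genes, 5.01-fold from 17.8 to 89.1 CPM. In GABA-CB1-WT basal mice *Dsp* had a lowest value of 25.4, a median of 42.3 and a highest value of 89.1 CPM, so that this group enclosed the values of both GABA-CB1-KO groups.

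*C1ql2* was highest in GABA-CB1-WT basal mice (21.1 ± 8.68 CPM, SD, n = 6) and lowest in GABA-CB1-WT open field mice (15.3 ± 4.39 CPM, SD, n = 7). The 7 Glu-CB1-KO basal libraries ran from 13.6 over a median of 17.6 to 45.9 CPM, a coefficient of variation (CV) of 55.6%. The highest library of that group was a single one, since the next lay at 18.1 CPM.

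The group means of *Lct* lay nearly as close as those of *Prox1*. They ran from 44.1 ± 11.1 CPM (SD, n = 7) in Glu-CB1-KO open field mice to 51.7 ± 13.7 CPM (SD, n = 6) in GABA-CB1-WT basal mice, a ratio of 1.17. *Tdo2* ran from 4.36 ± 1.40 CPM (SD, n = 5) in GABA-CB1-KO open field mice to 6.17 ± 2.61 CPM (SD, n = 6) in GABA-CB1-WT basal mice, a ratio of 1.42. The 5 GABA-CB1-KO open field libraries had 2.31, 5.63, 3.96, 4.17 and 5.70 CPM of *Tdo2*, and all of these lay under the highest value of every other group.

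For *Trpc6*, the 4 Glu-CB1 groups had the highest means, from 14.9 ± 4.61 CPM (SD, n = 7) in Glu-CB1-KO basal to 14.01 ± 2.66 CPM (SD, n = 7) in Glu-CB1-KO open field mice. GABA-CB1-WT mice followed at 13.95 ± 4.18 CPM basal (SD, n = 6) and 13.8 ± 1.96 CPM after open field (SD, n = 7), and GABA-CB1-KO mice came last at 11.1 ± 1.85 CPM basal (SD, n = 6) and 10.8 ± 1.01 CPM after open field (SD, n = 5). The step from GABA-CB1-WT open field to GABA-CB1-KO basal mice was the only one between neighbors in the order of any member that was larger than the SD of both groups. For *Prox1*, *Dsp*, *C1ql2*, *Lct* and *Tdo2*, no neighbors in the order of the groups were apart by more than their SD.

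The CV inside groups was 21.6% for *Trpc6*, 23.7% for *Prox1*, 25.6% for *Lct*, 32.8% for *Dsp*, 32.9% for *Tdo2* and 37.9% for *C1ql2*. Counting error would give between 2.64% for *Lct* and 8.00% for *Tdo2*, and covers no other source. On the log2 scale the SD between mice of a group was larger than that of 83.6% of genes for *Trpc6* and of 95.1% for *C1ql2*, with the other members between them.

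The levels of the members were correlated from mouse to mouse. To set mice of different groups side by side, the mean log2 CPM over the 6 genes was taken as the granule marker level of a library, and its group mean was subtracted. The deviations ran from -0.64 to 0.83 on the log2 scale, and the levels themselves covered a 2.98-fold range. The summed CPM of the 6 genes ran from 96.2 to 293, with a median of 154.

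In 11 libraries all 6 members were above their group mean, and in 10 libraries none was. The highest deviations belonged to Glu-CB1-KO basal replicate 2 (0.83), GABA-CB1-WT basal replicate 3 (0.79) and Glu-CB1-KO open field replicate 2 (0.62). The lowest belonged to Glu-CB1-WT basal replicate 3 (-0.64), GABA-CB1-WT basal replicate 5 (-0.63) and Glu-CB1-KO basal replicate 1 (-0.54). High and low libraries were therefore found in KO and in CB1-WT mice, and groups such as GABA-CB1-WT basal held both.

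Glu-CB1-KO basal replicate 2, for example, had 51.9 CPM of *Prox1*, 61.6 of *Dsp*, 45.9 of *C1ql2*, 87.5 of *Lct*, 8.97 of *Tdo2* and 24.8 of *Trpc6*. Its group mate replicate 1 had 23.97, 25.4, 13.6, 34.7, 3.01 and 10.9 CPM of the same genes. Both mice carried the same genotype and came from the home cage, and both belong to the 14 libraries that stood apart.

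**Figure D2:**
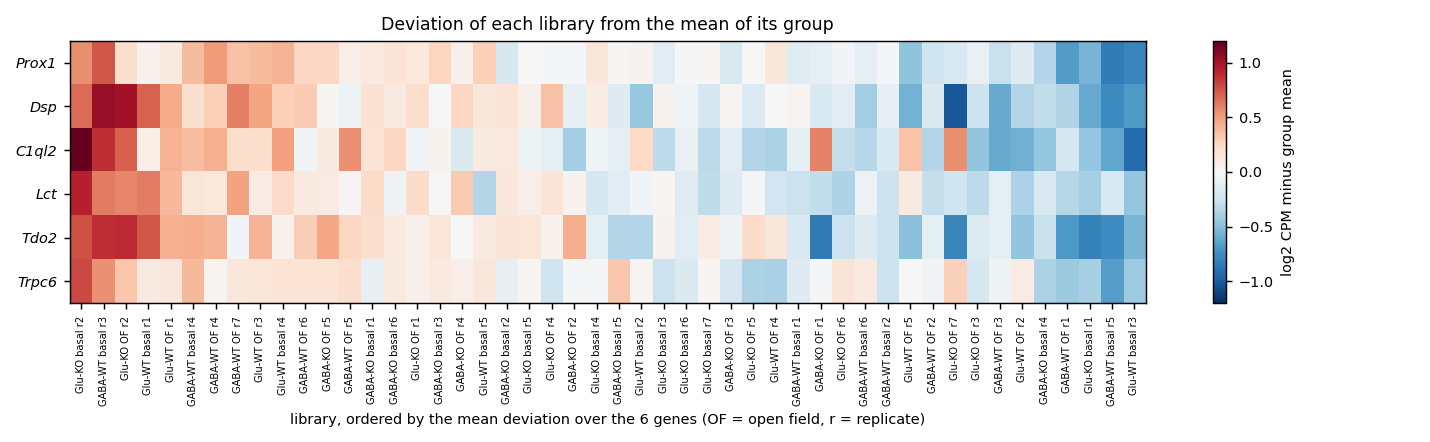
Deviation of log2 CPM from the group mean (color, red above and blue below) for each member (y axis) in each library (x axis), ordered by the mean deviation over the 6 genes. The 3 libraries at the left are above their group mean in all 6 genes and the 5 at the right are below in all 6; single cells of the opposite color, as for *C1ql2* in Glu-CB1-KO open field replicate 7, break the pattern.

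Each of the 15 pairs of members was correlated over the 48 libraries after group means were removed. Pearson's r lay between 0.476 for *C1ql2* and *Tdo2* and 0.836 for *Dsp* and *Tdo2*, with a median of 0.677, and Spearman's coefficient lay between 0.446 and 0.772. In the permutation test, two-sided and with libraries permuted inside groups, adjusted p over the 15 pairs was 2.143e-05 for the 7 pairs at the smallest p the permutations can give (1e-05), *Prox1* with *Dsp*, *Tdo2* and *Trpc6*, *Dsp* with *Lct* and *Tdo2*, *C1ql2* with *Trpc6*, and *Lct* with *Tdo2*, and 0.00324 for the weakest pair. For Spearman's coefficient the highest adjusted p of the permutation test was 0.00411. Without the 2 libraries farthest from the median of the first gene, r lay between 0.342 and 0.800.

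The correlations were also taken inside each line and inside ranges of a number in the library names. In the 24 Glu-CB1 libraries r lay between 0.436 and 0.934, and in the 24 GABA-CB1 libraries between 0.464 and 0.852. The numbers that end the library names, whose meaning the labels do not give, fall in a low and a high range in each line. In the high range of the Glu-CB1 line r went down to 0.016, and the lowest r was 0.713 in its low range and 0.399 and 0.382 in the low and high range of the GABA-CB1 line. The median r was 0.827 and 0.633 in the low (n = 16) and high (n = 8) range of the Glu-CB1 line, and 0.785 and 0.715 in the low (n = 13) and high (n = 11) range of the GABA-CB1 line. The high range of the Glu-CB1 line held a single Glu-CB1-KO open field library, replicate 7. Once its group mean is removed it has no deviation left, so r there rests on fewer libraries, in small groups.

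The pairs were also correlated without and within the libraries that stood apart. Among the 11 of the 14 apart libraries that share a group with another of them, r lay between 0.817 and 0.990, with a median of 0.881. They came from groups with 2 or 3 apart libraries each, so few of their deviations are free once group means are removed. In the 34 other libraries, r lay between 0.172 and 0.845, with a median of 0.556, and 10 of the 15 pairs passed the permutation test. The 5 that did not were *Dsp* with *C1ql2* (r = 0.422) and *Trpc6* (0.27), *C1ql2* with *Tdo2* (0.179), *Lct* with *Trpc6* (0.334) and *Tdo2* with *Trpc6* (0.172). The difference between the 2 sets of libraries was not tested. With the score on the first component taken out of all 48 libraries, r lay between 0.481 and 0.896 and the test was passed by 15 of 15 pairs.

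**Figure D3:**
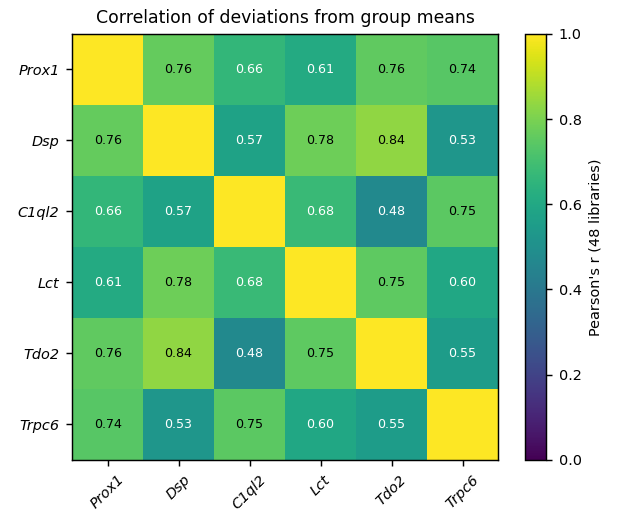
Pearson's r (color and printed value) between the deviations of each pair of members from their group means over 48 libraries. All 15 pairs are positive, the highest being *Dsp* and *Tdo2* (0.84) and the lowest *C1ql2* and *Tdo2* (0.48).

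A principal component analysis of the 6 genes put 73.2% of their variance inside groups on a component to which all 6 contributed with the same sign. The second component held 14.04% and set *C1ql2* (weight 0.74) and *Trpc6* (0.31) against *Tdo2* (-0.48) and *Dsp* (-0.35). Its highest library, Glu-CB1-KO open field replicate 7, had 25.5 CPM of *C1ql2*, above the group median of 15.99, and 17.8 CPM of *Dsp*, the lowest of all 48. The next, GABA-CB1-KO open field replicate 1, had the highest *C1ql2* of its group (22.99 CPM) and the lowest *Tdo2* of all libraries (2.31 CPM). Neither of these 2 libraries was among the 14 that stood apart.

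The granule marker level was also correlated with single genes beyond the members. Of 15564 other genes that passed the filter on low counts, 327 had r over 0.5 with it, 79 had r over 0.7 and 299 had r under -0.5, and the median over these genes was -0.0009. These r values are across the same 48 libraries and are given as a description. Of the 10 highest, 9 are given, which were *Dock10* (0.938), *Npnt* (0.930), *Stxbp6* (0.916), *Btbd3* (0.913), *Pdyn* (0.897), *Sema5a* (0.886), *Fam163b* (0.880), *Pla2g2f* (0.877) and *Mcm6* (0.873).

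*Dock10* encodes an activator of small GTPases and *Npnt* the matrix protein nephronectin, and both are known from granule cells. *Pdyn* is the precursor of dynorphin, a peptide of mossy fibers, and ran from 3.81 to 13.6 CPM over the libraries. *Sema5a* encodes a transmembrane semaphorin and ran from 74.01 to 198 CPM. *Mcm6*, a subunit of the replicative helicase, lies 3273 bases from *Lct* on chromosome 1 and had r = 0.812 with *Lct*, and r = 0.859 with the level taken over the other 5 members. Each of these 9 genes had r over 0.83 in each line, and r between -0.18 and 0.40 with the first principal component of the 500 most variable genes.

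The 5 genes that ran most strongly against the level were *Adcy3* (-0.751), *Arhgap1* (-0.743), *Clstn3* (-0.736), *Igsf21* (-0.735) and *Cpne7* (-0.724). Their ranges were narrower than those of the members. *Adcy3*, an adenylyl cyclase, lay between 68.7 and 85.8 CPM, and *Clstn3*, a synaptic calsyntenin, between 366 and 443 CPM. *Cpne7*, a calcium-dependent membrane binding protein, had the widest range of the 5, from 267 to 561 CPM.

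Of 17 other genes known from granule cells, 14 had r over 0.5 with the level and 11 were among the 100 highest of all genes. The list was chosen with earlier results of these data known, so these counts are a description and not separate evidence. The median r of this list was 0.794, with *Calb1* lowest (0.359), then *Cald1* (0.389) and *Il16* (0.400), and *Calb1* is also made by CA1 neurons. The mean of the list over its genes had r = 0.973 with the level of the 6 members.

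The lists of other cell types had lower medians. The 9 genes of precursors and immature neurons that passed the filter had a median r of 0.344, 6 choroid plexus genes 0.241, and 4 mossy cell genes 0.125. The medians were 0.055 for 11 CA3 and CA2 markers, 0.056 for 6 thalamic genes, -0.002 for 5 oligodendrocyte genes, -0.097 for 3 genes of subiculum and cortex, and -0.161 for 5 interneuron genes. The lowest median was that of the 8 CA1 pyramidal markers (-0.265), among which *Fibcd1* had -0.604, *Mpped1* -0.489 and *Wfs1* 0.040. Among CA3 and CA2 markers the values were split, from -0.678 for *Necab2* to 0.458 for *Iyd*.

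**Figure D4:**
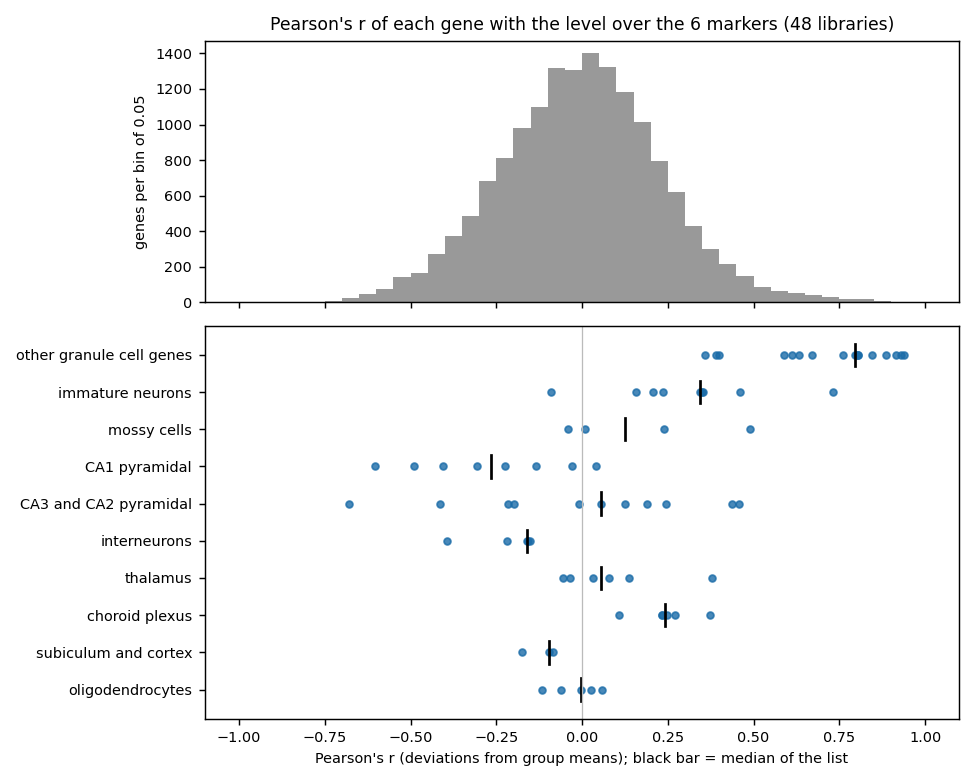
Pearson's r with the granule marker level over 48 libraries (x axis, deviations from group means) for all other genes that passed the filter (upper panel, number of genes per bin of r) and for the genes of each marker list (lower panel, points, with the median as a black bar). The list of other granule cell genes lies to the right with a median of 0.794, and the CA1 pyramidal markers lie to the left with a median of -0.265. The lists were chosen with earlier results of these data known.

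Genes that share a pathway or protein family with the members were set beside the level too. Of 11 other genes of the kynurenine pathway, 6 passed the filter, with r between -0.276 and 0.210 to the level. The 5 other TRPC channel genes that passed lay between -0.558 (*Trpc7*) and 0.164 (*Trpc5*). Of 13 other desmosome genes 8 passed, between -0.382 (*Dsc2*) and 0.411 (*Dsg2*). Among 7 genes of the C1q-like family and its partners, 6 passed, between -0.398 (*C1ql1*) and 0.671 (*C1ql3*, which is itself a granule cell gene), with a median of 0.006.

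Whether the members differed between genotypes was tested with edgeR's quasi-likelihood test on counts, inside each line and state, with p adjusted over all genes tested. None of the 6 members passed in any of these comparisons. In basal Glu-CB1 mice 0 of 6 members were called, against 0.0198% of all genes, and all 6 log2 fold changes lay above 0, between 0.01 for *Trpc6* and 0.18 for *Tdo2* (median 0.09, lowest adjusted p 0.999 by edgeR). Leaving out a single library turned the sign of 5 of these 6 values. The 95% intervals reached from -0.52 to 0.73 for *C1ql2* and from -0.36 to 0.38 for *Trpc6*. After open field, 0 of 6 were called in this line against 0.272% of all genes, and the log2 fold changes lay between -0.08 for *C1ql2* and -0.01 for *Prox1* (lowest adjusted p 0.999 by edgeR).

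In basal GABA-CB1 mice 0 of 6 members were called, against 0.245% of all genes. *C1ql2* had the largest difference, with 11.2 to 18.3 CPM (median 16.3) in KO and 12.9 to 36.6 CPM (median 17.97) in CB1-WT mice. The groups overlapped, and the log2 fold change was -0.44 (SE 0.21, 95% interval -0.90 to 0.02, edgeR adjusted p = 0.626). *Trpc6* had 8.42 to 13.8 CPM (median 11.1) in KO and 8.51 to 19.7 CPM (median 13.3) in CB1-WT mice, a log2 fold change of -0.34 (SE 0.18, 95% interval -0.72 to 0.04, edgeR adjusted p = 0.655). Both values kept their sign with each library left out, and lay nearest 0 without CB1-WT replicate 3. Without it the log2 fold change was -0.21 for *C1ql2* and -0.22 for *Trpc6*, and that of *Dsp* was the largest (0.29).

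In GABA-CB1 mice after open field 0 of 6 members were called, against 0.0199% of all genes, and 2 members had an unadjusted p under 0.05, as had 13.2% of all genes. *Trpc6* was 10.6, 10.6, 9.40, 11.4 and 12.1 CPM in the KO libraries and 10.0 to 15.8 CPM (median 14.03) in the CB1-WT libraries. All KO values lay under the CB1-WT median, but the lowest CB1-WT library lay among them, and the log2 fold change was -0.35 (SE 0.10, 95% interval -0.56 to -0.14, edgeR adjusted p = 0.234). *Dsp* was 42.3, 44.8, 49.4, 57.1 and 48.5 CPM in the KO and 23.5 to 54.3 CPM (median 34.2) in the CB1-WT libraries. Its groups overlapped as well, and the log2 fold change was 0.39 (SE 0.17, 95% interval 0.04 to 0.74, edgeR adjusted p = 0.343).

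*Trpc6* and *Dsp* lay on opposite sides of 0 in the GABA-CB1-KO mice after open field, while *Prox1* (0.05), *C1ql2* (0.03) and *Lct* (0.11) had values above 0 and *Tdo2* had -0.17. *Tdo2* rested on KO replicate 1, without which its value was -0.01, and *Lct* ran from 0.03 without KO replicate 4 to 0.21 without CB1-WT replicate 7. Leaving out CB1-WT replicate 1 or KO replicate 5 turned *Prox1* below 0, and its lowest value was -0.04, while *C1ql2* went down to -0.15 without KO replicate 1. *Trpc6* and *Dsp* kept their sign with each library left out, from -0.41 to -0.30 and from 0.30 to 0.51. Counted by libraries that do not overlap between KO and CB1-WT mice, 0 of 6 members were apart in each of the 4 comparisons, against 0.193% and 0.726% of genes in Glu-CB1 mice and 0.687% and 0.97% in GABA-CB1 mice, basal and open field in turn.

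**Figure D5:**
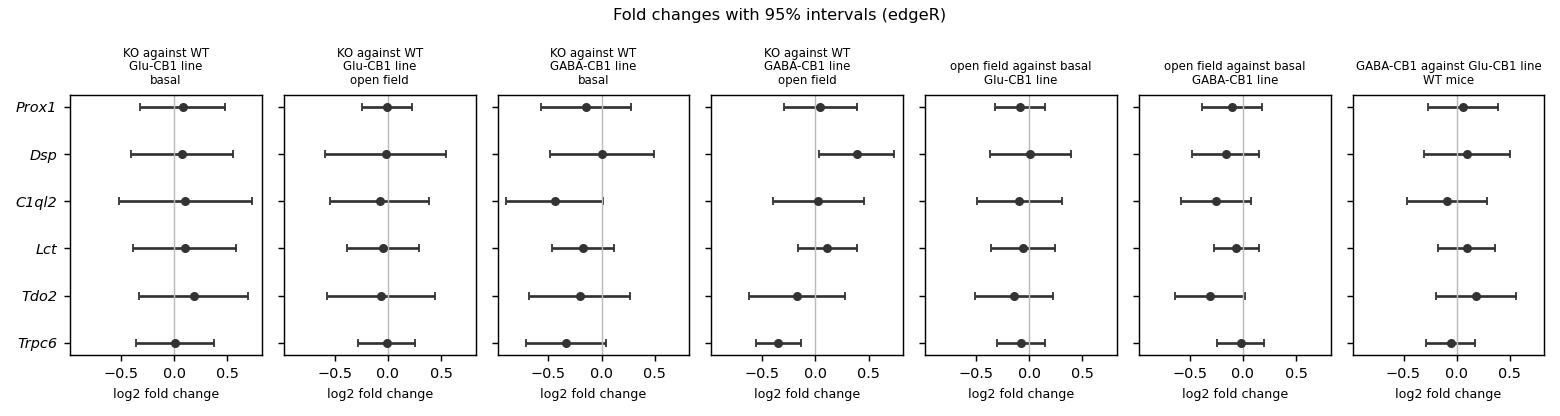
Log2 fold change (x axes) with its 95% interval for each member (y axis) in 7 comparisons, from edgeR's quasi-likelihood fit. All intervals cross 0 except those of *Trpc6* and *Dsp* in GABA-CB1 mice after open field, and these did not pass the adjustment over all genes.

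Between states no member passed the threshold either. In the Glu-CB1 line 0 of 6 were called against 1.8% of all genes, with log2 fold changes between -0.15 for *Tdo2* and 0.01 for *Dsp* (lowest adjusted p 0.803 by edgeR). In the GABA-CB1 line 0 of 6 were called against 0.963% of all genes. All 6 values lay below 0 there, from -0.31 for *Tdo2* (SE 0.16, 95% interval -0.64 to 0.02, edgeR adjusted p = 0.446) to -0.02 for *Trpc6*. Without GABA-CB1-WT basal replicate 3 the value of *Tdo2* was -0.19 and that of *C1ql2* -0.12. Those of *Prox1* and *Dsp* were then -0.006 and -0.005, and those of *Lct* and *Trpc6* were 0.02 and 0.04.

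The granule markers were compared between the CB1-WT littermates of the lines. This comparison cannot tell dissection from other differences between these littermates. Between them 0 of 6 members were called, against 0% of all genes by edgeR, with 593 genes (3.86%) at an unadjusted p under 0.05 and none of the members among them. The log2 differences (GABA-CB1 over Glu-CB1) lay between -0.09 for *C1ql2* and 0.18 for *Tdo2*, which was 0.06 without GABA-CB1-WT basal replicate 3. The genotype effect was also compared between lines. In basal mice 0 of 6 were called against 0.279% of all genes, with differences (Glu-CB1 minus GABA-CB1) between 0.07 for *Dsp* and 0.55 for *C1ql2*, whose 95% interval ran from -0.27 to 1.36 and whose difference was 0.21 without Glu-CB1-KO basal replicate 2. After open field 0 of 6 were called against 0.568% of all genes, and *Trpc6* had the lowest p (difference 0.34, 95% interval -0.02 to 0.69, edgeR adjusted p = 0.488). At an unadjusted p under 0.05 by edgeR, 0 of 6 members were found in each comparison other than that of GABA-CB1 genotypes after open field. The share of all genes at this level was 3.57% and 6.97% between Glu-CB1 genotypes, basal and open field in turn, and 8.16% between basal GABA-CB1 genotypes. It was 13.9% and 12.1% between states of the Glu-CB1 and GABA-CB1 lines, and 8.56% and 10.8% for the difference of the genotype effect, basal and open field in turn.

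The list of other granule cell genes was read beside the members in each of these comparisons. None of its 17 genes was called between genotypes, between states or between the CB1-WT littermates. In basal GABA-CB1 mice 14 of the 17 had lower values in KO mice, with a median log2 fold change of -0.11, against -0.19 for the members and -0.0005 for all genes. In basal Glu-CB1-KO mice 13 of the 17 had higher values (median 0.04). After open field the list was divided, with 8 of 17 higher in KO mice of either line. Between states of the GABA-CB1 line 16 of 17 were lower after open field than in the basal state. Their median was -0.09, beside -0.13 for the members and -0.0006 for all genes. The list followed the level of the members over the libraries (r = 0.973), so its genes are not separate observations in these counts. Of the list, *Il16*, a cytokine precursor, was called in the difference of the genotype effect between lines after open field (-0.47, SE 0.10, edgeR adjusted p = 0.0178). In that comparison 0.568% of all genes were called.

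Members of the other lists passed the test in a few places. After open field in Glu-CB1-KO mice, 1 of 11 CA3 and CA2 markers, *Iyd*, fell by 0.56 on the log2 scale (SE 0.11, edgeR adjusted p = 0.0463), and 1 of 6 thalamic genes, *Prkcd*, fell by 0.58 (SE 0.07, edgeR adjusted p = 0.00309). Of all genes, 0.272% were called there. In basal GABA-CB1-KO mice 1 of 11 CA3 and CA2 markers, *Bok*, fell by 0.52 (SE 0.07, edgeR adjusted p = 0.00328), against 0.245% of all genes called. Among the partners of *Dsp*, plakophilin 2 (*Pkp2*) rose by 0.23 after open field in the Glu-CB1 line (SE 0.04, edgeR adjusted p = 0.00324). It was 1 of 8 tested, against 1.8% of all genes called. In the difference of the genotype effect after open field, 0.568% of all genes were called. Among them were the TRPC channel gene *Trpc4* (0.33, 1 of 5 tested) and the kynurenine pathway gene *Ido2* (-0.72, 1 of 4 tested). The interneuron genes *Gad1* (0.25) and *Sst* (0.78), 2 of 5 tested, and *Prkcd* (-0.62), 1 of 6 thalamic genes, were called as well. The calls of *Iyd* and *Ido2* hung on most of the libraries. *Iyd* was called in 2 of 12 fits with a library left out, those without KO replicate 5 or 6 (highest edgeR adjusted p 0.142), and *Ido2* in 8 of 24, those without Glu-CB1-WT replicate 2, Glu-CB1-KO replicate 3 or 4, GABA-CB1-WT replicate 3, 5 or 7, or GABA-CB1-KO replicate 1 or 3 (highest edgeR adjusted p 0.109). *Gad1*, *Trpc4*, *Iyd* and *Ido2* missed the threshold without the 14 libraries that stood apart (edgeR adjusted p = 0.0682, 0.0888, 0.2035 and 0.2356).

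The granule marker level was last used as a covariate, to see how many genes are called between genotypes once it is in the model. The level itself was similar in KO and CB1-WT mice. In GABA-CB1 mice it was 4.33 ± 0.17 in KO (SD, n = 6) and 4.48 ± 0.49 in CB1-WT mice (SD, n = 6) in the basal state, in mean log2 CPM, and the smaller spread among GABA-CB1-KO mice was also seen after open field (0.14 against 0.31), a difference in spread that was not tested.

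With the level in the model and the members left out, edgeR called 3 genes in basal Glu-CB1 mice (3 without the level, 3 shared), and 43 after open field (41 without, 35 shared). It called 38 in basal GABA-CB1 mice (37 without, 32 shared) and 5 after open field (3 without, 3 shared). These counts hung on single libraries. In basal Glu-CB1 mice 5 genes were called without CB1-WT replicate 3. After open field in Glu-CB1 mice, the count was 17, 14 and 19 without CB1-WT replicates 3, 4 and 5, and 14, 11, 15, 18 and 28 without KO replicates 1, 2, 3, 4 and 7. In basal GABA-CB1 mice it was 24, 21, 4 and 25 without CB1-WT replicates 2, 4, 5 and 6, and 20 and 17 without KO replicates 1 and 6. After open field in GABA-CB1 mice it was 3, 2 and 3 without CB1-WT replicates 3, 4 and 6, and 14, 3, 2 and 3 without KO replicates 1, 2, 3 and 5.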

How the data were processed

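Hippocampal CA tissue of 48 mice was analyzed by RNA-sequencing of total RNA, 1 library per mouse. After amplification of cDNA and library preparation with kits of NuGEN, the authors filtered and trimmed reads, mapped them to mm10 (STAR 2.6.0a) and assigned them to genes in the reverse-stranded setting of featureCounts 1.6.2. The deposited values are raw counts per gene, without normalization, beside gene coordinates and exon length. Groups came from the sample labels. Total counts ran from 25892654 to 34091080 per library, and the counting error given covers no other source of error. No pair of libraries in a group was close enough to be a duplicate (123 pairs, lowest chi-square per degree of freedom 2.85).

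Levels are CPM with TMM factors over all 48 libraries, and log2 values use a prior count of 2. P-values measure the spread between mice. Differences were tested with edgeR 4.0.16 (R 4.3.3) by glmQLFit and glmQLFTest, with TMM and filterByExpr, only the libraries of a comparison in its fit, and Benjamini-Hochberg adjustment over all genes tested at a threshold of 0.05. SEs were derived from the F statistic and 95% intervals from the t distribution of the fit. Comparisons of states had genotype as a covariate, that of CB1-WT littermates had state, and effects were compared between lines by an interaction term. Correlations were tested with 100000 permutations within groups (numpy 2.4.6, scipy 1.17.1). The tests were tried on simulated counts first. Named are the 6 members, called genes of the marker lists, *Adgrl2*, and the 10 genes most and 5 least like the level of the members, of which 1 is not reported here. Alternatives were another tool (DESeq2 1.42.0) or size factors, other filters, other models and libraries left out, and those on the first principal component were added after seeing the data. The members and lists were chosen with earlier results of these data known. Promoter sequences are from RefSeq (GRCm38.p6). The study itself tested with DESeq2. Columns of other samples numbered 0.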

Additional observations from a re-analysis of the deposited data

Results flagged for a closer look

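The highest and the lowest library of each group were compared with their neighbors for the 6 members and for the granule marker level, in 56 groups of values. In 7 of them the library at one end lay far from the rest by Dixon's criterion, which picks about 1 in 20 groups by chance. The 56 are not independent, since the members were correlated and the level is their mean. The 7 can therefore not be set against that share.

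Glu-CB1-KO basal replicate 2 stood out in 4 of the 7. It had 45.91 CPM of *C1ql2* with the next library at 18.06, 87.51 CPM of *Lct* with the next at 48.37, 24.83 CPM of *Trpc6* with the next at 14.65, and a granule marker level of 5.239 (mean log2 CPM over the 6 members) with the next at 4.448. *Dsp* was 89.12 CPM in GABA-CB1-WT basal replicate 3, with the next library at 49.16. *Trpc6* was 10.77 CPM in Glu-CB1-WT basal replicate 3, under a next lowest value of 14.96. The level of Glu-CB1-KO open field replicate 2 was 4.908, with the next library at 4.392. Both of these Glu-CB1-KO libraries and the Glu-CB1-WT library belong to the 14 that stood apart on the first principal component, whose part in these values was not tested, and the GABA-CB1-WT library does not.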

How the results depend on the processing

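The call of 0 of 6 members was the same in all 247 combinations of a comparison with another setting or a library left out, DESeq2 included. The sign of 18 of 54 log2 values turned with another setting, none of them past the threshold on either side of 0, and the cause was not tested. Without the 14 libraries that stood apart, an alternative chosen after seeing the data, log2 values of the opposite sign were *Prox1* -0.12, *C1ql2* -0.37, *Lct* -0.018 and *Trpc6* -0.17 between the basal Glu-CB1 genotypes, *C1ql2* 0.054 and *Trpc6* 0.0074 between the open field Glu-CB1 genotypes, *Dsp* -0.20 between the basal GABA-CB1 genotypes, *Dsp* -0.12 between the Glu-CB1 states, *C1ql2* 0.045 and *Trpc6* 0.042 between the CB1-WT littermates, *C1ql2* 0.031 and *Tdo2* -0.064 between the open field genotype effects of the lines. With the range of the library name number in the model they were *Lct* -0.0041 between the basal Glu-CB1 genotypes, *Prox1* 0.043 between the open field Glu-CB1 genotypes, *Dsp* -0.021 between the Glu-CB1 states, *Dsp* -0.075 between the basal genotype effects of the lines. With the first principal component in the model, also added later, there was 1, *Dsp* -0.0017 between the Glu-CB1 states.

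With another setting, the number of genes called beside the granule marker level changed by over 1.5 times as follows. The edgeR counts were those given above. No count without the level is given for these settings, so the part of the level cannot be told from that of the setting. DESeq2 called 16 between the basal Glu-CB1 genotypes, 133 between the open field Glu-CB1 genotypes, 123 between the basal GABA-CB1 genotypes and 219 between the open field GABA-CB1 genotypes. The range of the name number gave 18 between the open field Glu-CB1 genotypes, and leaving out the 14 libraries gave 7 between the open field Glu-CB1 genotypes, 4 between the basal GABA-CB1 genotypes and 3 between the open field GABA-CB1 genotypes. Leaving out 1 library at a time gave 3 to 5 between the basal Glu-CB1 genotypes, 11 to 47 between the open field Glu-CB1 genotypes, 4 to 36 between the basal GABA-CB1 genotypes and 2 to 14 between the open field GABA-CB1 genotypes.

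The replicate numbers did not pair the mice. Of 21 same-numbered pairs of a KO and a CB1-WT library, 4 had deviations from their group means correlated over 0.1 (range -0.335 to 0.317). With the number as replicate block, 0 of 6 members were called in each comparison, and log2 values of the opposite sign were *Prox1* 0.054, *Dsp* 0.15, *Lct* 0.062 and *Tdo2* 0.11 between the open field Glu-CB1 genotypes, *Dsp* -0.025 between the Glu-CB1 states, *Prox1* -0.0004 between the CB1-WT littermates. With the replicate block the genes called beside the level were 2 between the open field Glu-CB1 genotypes, 1 between the basal GABA-CB1 genotypes and 2 between the open field GABA-CB1 genotypes.

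With single libraries left out, 28 of 54 log2 values covered a range on both sides of 0, a further 23 moved by over 1.5 times and 3 did not. Between the basal Glu-CB1 genotypes these were *Dsp* from -0.068 to 0.29, *Prox1* from -0.074 to 0.19, *C1ql2* from -0.23 to 0.24, *Lct* from -0.12 to 0.28 and *Trpc6* from -0.16 to 0.073. Between the open field Glu-CB1 genotypes these were *Prox1* from -0.12 to 0.091, *Dsp* from -0.24 to 0.10, *C1ql2* from -0.22 to 0.031, *Lct* from -0.16 to 0.059, *Tdo2* from -0.26 to 0.0501 and *Trpc6* from -0.10 to 0.044. Between the basal GABA-CB1 genotypes these were *Dsp* from -0.12 to 0.29, *Prox1* from -0.28 to 0.034 and *Tdo2* from -0.33 to 0.0196. Between the open field GABA-CB1 genotypes these were *Prox1* from -0.044 to 0.14 and *C1ql2* from -0.15 to 0.13. Between the Glu-CB1 states these were *Dsp* from -0.11 to 0.091, *Lct* from -0.12 to 0.067, *C1ql2* from -0.17 to 0.10 and *Trpc6* from -0.12 to 0.021. Between the GABA-CB1 states these were *Lct* from -0.11 to 0.023 and *Trpc6* from -0.083 to 0.042. Between the CB1-WT littermates these were *Prox1* from -0.027 to 0.12 and *Dsp* from -0.045 to 0.17. Between the basal genotype effects of the lines these were *Dsp* from -0.21 to 0.28. Between the open field genotype effects of the lines these were *C1ql2* from -0.25 to 0.072, *Prox1* from -0.16 to 0.042 and *Tdo2* from -0.088 to 0.22.

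Among the 15 correlations of members, that of *Dsp* and *Trpc6* missed the threshold with group means kept (r = 0.268, adjusted p = 0.0658 by permutation) and 5 missed it without the 14 libraries. Of the called genes of the other lists, *Iyd*, *Trpc4* and *Il16* missed it in a fit of all 48 libraries (edgeR adjusted p = 0.377, 0.144 and 0.0701). In that fit *Prkcd* missed it in the difference of the genotype effect between lines (edgeR adjusted p = 0.151). With the range of the name number, *Iyd* (0.123) and *Ido2* (0.0907) missed it. *Ido2* also missed it with no filter on low counts (edgeR adjusted p = 0.0609). With the replicate block, *Iyd* (0.301), *Prkcd* between genotypes (0.161), *Bok* (0.0637), *Il16* (0.0535) and *Ido2* (0.0852) missed it. The range of the name number and the 14 libraries are not separate splits, since all 14 lie in the lower range.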

Other observations

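The second component of the members, which set *C1ql2* and *Trpc6* against *Tdo2* and *Dsp*, was read against all other genes, a choice made after its values were seen. Over the 48 libraries, with group means removed, the genes with the highest r to it were *Tmc6* (0.733) and *Rasl10a* (0.674), and those with the lowest were *Pip5k1b* (-0.663) and *Zmat3* (-0.648). These r values are a description over the same libraries, with no test.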
